A study of Mus musculus with 4 samples.

Results

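The S phase and G2/M genes are a fixed list of 36 genes, 17 read in cells that copy their DNA and 19 read in cells that prepare for or pass through mitosis. They were taken by name from that list, and all 36 were found once each among the 33456 gene entries of the deposited tables. Each was followed by cell class inside 4 libraries of hindlimb cells from C57BL/6 mouse embryos, 1 library per stage at embryonic day 11.5, 13.5, 15.5 and 18.5 (E11.5 to E18.5), with no genetic change or treatment in any of them. Each library pools the hindlimbs of 6 to 7 pups of a single litter, dissociated with enzymes, frozen, thawed and freed of dead cells before droplet capture with a kit that reads the 3' ends of transcripts. No stage has a replicate, so nothing was tested. A difference between stages is here a difference between single libraries, and the 95% intervals in parentheses cover counting error only.

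Dividing cells pass through G1, S, G2 and M. In S phase the MCM complex unwinds DNA at origins that Cdc6 helped to load, Pcna clamps the polymerases to the template, and Rrm1, Rrm2 and Tyms supply the building blocks. In G2 and M, Cdk1 with its cyclins Ccna2, Ccnb1 and Ccnb2 drives the cell into mitosis, the Aurora and Polo kinases (Aurka, Aurkb, Plk1) and motors such as Kif11 build the spindle, and Ube2c helps to destroy the cyclins at its end. In the growing limb, progenitors of cartilage, muscle and skin divide, while enlarging (hypertrophic) chondrocytes, fusing muscle cells and neutrophils have left the cycle.

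Promoter sequences from RefSeq (GRCm38.p6), reaching from 250 bases before to 50 after the start of a gene, were found for 16 of the 19 G2/M and 15 of the 17 S phase members. The sequence called CHR, searched as TTTGAA or TTTAAA on both strands, was present in 14 of the 16 G2/M and 4 of the 15 S phase promoters, against 27.8% of 27025 promoters of the same length. The E2F words TTCCCGC or TTGGCGC, and also TTCGCGC or TTGCCGC, on both strands, were present in 4 of the 16 and 9 of the 15, against 9.69%. The CCAAT box, on both strands, was present in 14 of the 16 and 11 of the 15, against 37.9%. These 3 motif sets share no full word, though 2 E2F words may overlap each other. A match describes the letters and is not a binding site. The members whose levels ran closest to the rest of their list and had a motif are shown with the 1 of each list that ran least with it, from 170 bases before to 30 after the start. Capitals mark matches to any of the 3 motifs, and the first 2 are G2/M members, the next 2 S phase members, and the last 2 the least typical G2/M and S phase members.
Cenpa, chr5:30666716-30666915, plus strand: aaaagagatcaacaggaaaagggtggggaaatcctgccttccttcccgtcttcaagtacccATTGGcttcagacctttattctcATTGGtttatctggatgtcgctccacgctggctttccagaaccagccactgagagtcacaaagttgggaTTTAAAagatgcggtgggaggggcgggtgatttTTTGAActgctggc
Kif11, chr19:37376212-37376411, plus strand: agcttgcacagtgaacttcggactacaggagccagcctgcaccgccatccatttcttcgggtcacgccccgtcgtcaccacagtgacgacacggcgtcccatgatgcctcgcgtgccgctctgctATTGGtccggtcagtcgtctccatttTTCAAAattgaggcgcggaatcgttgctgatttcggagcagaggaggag
Rrm1, chr7:102441525-102441724, plus strand: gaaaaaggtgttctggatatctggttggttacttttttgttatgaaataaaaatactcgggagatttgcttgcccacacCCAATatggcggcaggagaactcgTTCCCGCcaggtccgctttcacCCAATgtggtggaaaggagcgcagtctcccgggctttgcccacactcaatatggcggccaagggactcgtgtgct
Mcm3, chr1:20820283-20820482, minus strand: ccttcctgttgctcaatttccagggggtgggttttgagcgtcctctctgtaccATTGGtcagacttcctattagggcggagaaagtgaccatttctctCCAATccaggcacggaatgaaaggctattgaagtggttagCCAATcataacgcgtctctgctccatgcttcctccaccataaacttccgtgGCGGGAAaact
Aurka, chr2:172370541-172370740, minus strand: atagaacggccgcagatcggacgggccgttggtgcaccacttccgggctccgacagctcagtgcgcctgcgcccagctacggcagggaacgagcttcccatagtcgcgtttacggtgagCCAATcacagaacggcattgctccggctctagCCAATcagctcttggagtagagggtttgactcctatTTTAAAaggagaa
Slbp, chr5:33652545-33652744, minus strand: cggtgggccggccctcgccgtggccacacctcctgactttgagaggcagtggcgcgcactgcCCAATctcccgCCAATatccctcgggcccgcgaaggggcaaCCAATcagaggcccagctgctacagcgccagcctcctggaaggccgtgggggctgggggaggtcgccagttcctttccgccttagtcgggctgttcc
In the printed stretches Cenpa held 2 CHR words and Kif11 held 1, Rrm1 held 1 E2F word, and Slbp held 3 CCAAT boxes and neither of the other motifs. Aurka, though least like the other G2/M members in level, held the same kinds of match as Cenpa. For Kif11 and Aurka the first bases after the start were not found in a GENCODE vM21 transcript of the gene. The printed Aurka stretch lies outside the gene as annotated there (172356190 to 172370535).

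After removal of barcodes with over 10% mitochondrial UMIs (unique molecular identifiers, each standing for 1 captured transcript), 9958 of 10272 barcodes were kept, 1904 to 2816 per library, with median depths from 6960 UMIs at E18.5 to 10276 at E13.5. Cells were clustered without the members and the other cell cycle genes of the lists used here, and clusters carry the name of a type, written "like", where marker genes gave one. Of all barcode sequences 69 of 10203 occurred in more than 1 library. Doublets are treated as still present. With at least 30 cells asked for, there were 35 pairs of a class and a library.

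Each cell was thinned to 2000 UMIs, so that deep and shallow cells were read at the same depth. Thinning does not even out composition. Genes counted as abundant held 42.4% of UMIs in neutrophil-like and 32.0% in differentiating muscle-like cells at E18.5. In the E11.5 classes they held 6.60 to 9.27%. Where they hold more, fewer of the 2000 UMIs are left for members, and library shares without them are given at the end. A cell with at least 3 UMIs of a list was above the limit of that list, and it was called S or G2/M by the larger list count after each count was divided by its mean over all cells. Cells below both limits were called neither, which is not the same as G1. At E11.5 nearly every cell was called: 54.0% (52.1 to 55.9%) S and 39.7% (37.8 to 41.6%) G2/M. At E13.5 the shares were 32.4% (30.6 to 34.1%) S and 24.5% (22.9 to 26.1%) G2/M. At E15.5 they were 23.4% (21.8 to 25.1%) S and 27.3% (25.6 to 29.1%) G2/M. The E18.5 library had 23.9% (22.0 to 25.9%) S, and 323 of its 1904 cells (15.3 to 18.7%) were G2/M. The called share thus went from 93.7% to 56.8%, 50.7% and 40.9% in stage order, and without thinning it was 99.3%, 92.2%, 87.9% and 71.8%. Between E11.5 and E13.5, levels of long transcripts also shifted against short ones in both classes that could be compared, as given with the levels below, and the part of that shift in the shares was not tested. The limits matter: 24.7% of cells held 2 or 3 S phase UMIs and 1093 of the 9958 held 2 or 3 G2/M UMIs, close to the limit, and 25.6% were above both limits.

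**Figure D1:**
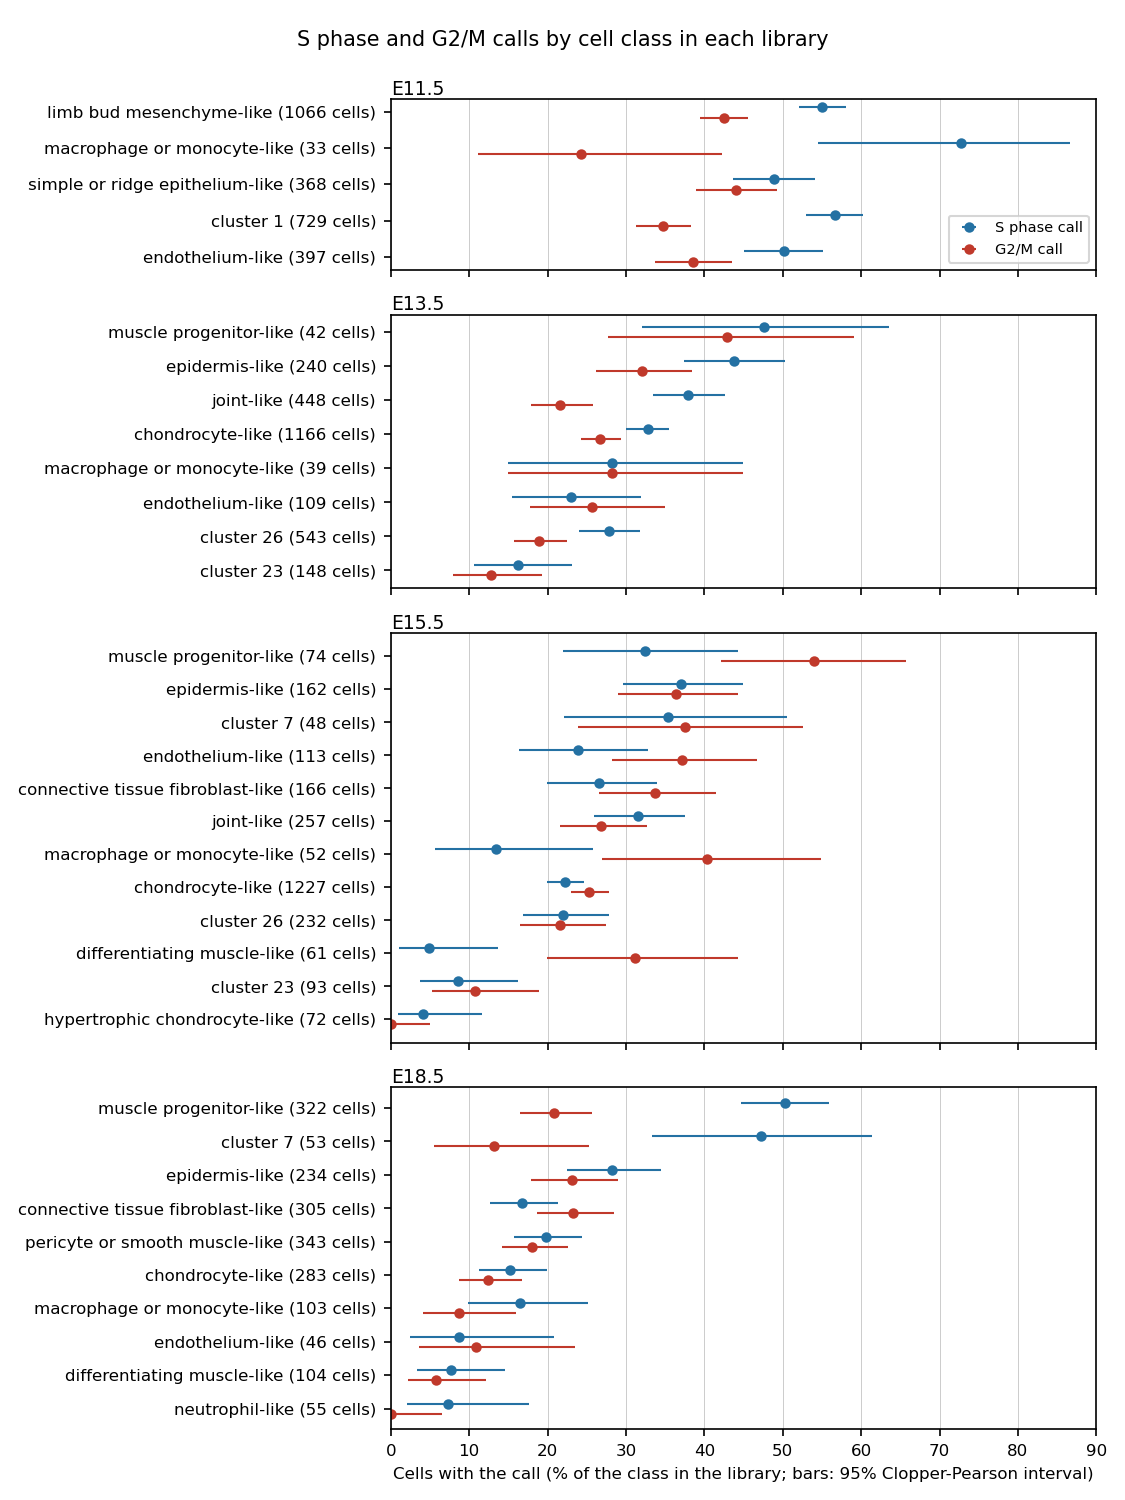
Share of cells called S (blue) and G2/M (red) in each class with at least 30 cells, in 1 panel per library, on a horizontal axis in percent of the class, with 95% Clopper-Pearson intervals as bars. Muscle progenitor-like cells stand at the top of the 3 later panels, and hypertrophic chondrocyte-like and neutrophil-like cells have a G2/M share of 0.

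Neutrophils and hypertrophic chondrocytes are known to have left the cycle, so the call in them was read as its background. Neutrophil-like cells at E18.5 (55 cells, median 3788 UMIs) had 7.27% of cells called (2.02 to 17.6%), and hypertrophic chondrocyte-like cells at E15.5 (72 cells, median 13191 UMIs), the mineralising cells led by Spp1, Col10a1 and Mmp13, had 4.17% (0.868 to 11.7%). Neither had a G2/M-called cell, which allows up to 6.49% and 4.99% (exact upper bounds). All calls in both classes were S calls. The 4 S-called neutrophil-like cells held less S100a8 (28180 against 108256 CPM in uncalled ones) and Retnlg (5191 against 24299 CPM). Whether these 4 are mature neutrophils was not tested. The 3 S-called hypertrophic chondrocyte-like cells held more Col10a1 (23958 against 12813 CPM). With both classes taken as out of the cycle, an S share of a few percent is not above the background of this rule. Differentiating muscle-like cells at E15.5 (4.92% S) and E18.5 (7.69% S), endothelium-like cells at E18.5 (8.70% S) and cluster 23 at E15.5 (8.60% S) lay within the called-share intervals of both.

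Among the 5 classes at E11.5 the called share ran from 88.7% (85.1 to 91.6%) in endothelium-like to 97.6% (96.4 to 98.4%) in limb bud mesenchyme-like cells. Cluster 1, mesenchyme led by Tbx18 and Shox2 that stayed unnamed, had 91.4% (89.1 to 93.3%), so the interval of limb bud mesenchyme-like cells lay above those of both. Macrophage-like or monocyte-like cells had the highest S share of any pair, 72.7% (54.5 to 86.7%), in 33 cells. Neighbours in this order overlapped in their intervals throughout.

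From E13.5 on, muscle progenitor-like cells stood first, and epidermis-like cells next or next but 1. Muscle progenitor-like cells, marked by Msc, Cdh15 and Myf5, had 90.5% of cells called at E13.5 (77.4 to 97.3%), then 86.5% (76.5 to 93.3%) and 71.1% (65.8 to 76.0%). Epidermis-like cells had 75.8% (69.9 to 81.1%), 73.5% (66.0 to 80.1%) and 51.3% (44.7 to 57.8%). Chondrocyte-like cells lay in the middle at E13.5, with 59.5% (56.6 to 62.4%), and lower later, with 47.5% (44.7 to 50.4%) and 27.6% (22.4 to 33.2%). Cluster 23, with the prehypertrophic genes Panx3, Ihh and Pth1r among its leading genes, was last at E13.5 with 29.1% (21.9 to 37.1%) and next to last at E15.5 with 19.4% (11.9 to 28.9%). Only 3 pairs of neighbours in these orders had intervals apart: epidermis-like over joint-like cells and cluster 26 over cluster 23 at E13.5, and cluster 23 over hypertrophic chondrocyte-like cells at E15.5.

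Between E15.5 and E18.5 more classes had intervals apart in G2/M than in S. In all 8 classes with 30 cells in both libraries the G2/M share was lower at E18.5, and in 6 the intervals were apart. Muscle progenitor-like cells went from 54.1% (42.1 to 65.7%) to 20.8% (16.5 to 25.7%), macrophage-like or monocyte-like cells from 40.4% (27.0 to 54.9%) to 8.74% (4.07 to 15.9%), and endothelium-like cells from 37.2% (28.3 to 46.8%) to 10.9% (3.62 to 23.6%). Chondrocyte-like cells went from 25.3% (22.9 to 27.9%) to 12.4% (8.77 to 16.8%), epidermis-like cells from 36.4% (29.0 to 44.3%) to 23.1% (17.8 to 29.0%), with bounds that nearly touch, and differentiating muscle-like cells from 31.1% (19.9 to 44.3%) to 5.77% (2.15 to 12.1%). Fibroblast-like cells (33.7% and 23.3%) and cluster 7 (37.5% and 13.2%), immune cells led by Cpa3 and Cd3g, had overlapping intervals. The S share had intervals apart in only 1 of the 8: muscle progenitor-like cells went up, from 32.4% (22.0 to 44.3%) to 50.3% (44.7 to 55.9%). In chondrocyte-like cells it went from 22.2% (19.9 to 24.6%) to 15.2% (11.2 to 19.9%), with bounds that barely overlap. It was also lower in value in endothelium-like, fibroblast-like and epidermis-like cells. In cluster 7, differentiating muscle-like and macrophage-like or monocyte-like cells it was higher in value. A cell above both limits takes only 1 call. Of muscle progenitor-like cells 64.9% and 60.2% were at or above the S limit, and 63.5% and 32.9% at or above the G2/M limit. The higher S share thus does not stand for more cells above the S limit. None of the alternative settings that could be run turned the direction of any of the 8 G2/M differences. Of 17 settings, 1 turned the S difference in muscle progenitor-like cells: thinned to 1000 UMIs the S share was 27.0% at E15.5 and 26.1% at E18.5.

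The makeup of some classes changed between these libraries. Muscle progenitor-like, differentiating muscle-like and macrophage-like or monocyte-like cells are 1 cluster each. Chondrocyte-like cells were mostly clusters 20 and 22 at E15.5 (45.4% and 28.2%) and cluster 21 at E18.5 (78.1%). Cluster 16, led by the histone gene Hist1h2ap and by Cdkn3, was 79.5% G2/M at E15.5, while cluster 20 was 3.41%. The lists had been left out of the clustering, but Hist1h2ap and Cdkn3 are on none of them. Cell cycle genes outside the lists could thus enter the clustering. Endothelium-like cells moved from clusters 3 and 11 to 11 and 25, and epidermis-like cells from cluster 12 to 13. Fibroblast-like cells went from 98.8% cluster 18 to 61.3% cluster 18 and 38.7% cluster 19, with G2/M shares of 32.9% and 32.1% within cluster 18 and 9.32% within cluster 19 at E18.5. The E18.5 library also had the lowest median depth and the highest median mitochondrial share (3.54% against 2.60 to 2.92%). The part of these shifts in the result was not tested, apart from depth, which the thinning holds fixed.

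Between E13.5 and E15.5 only chondrocyte-like cells had intervals apart, and only in S. The S share of chondrocyte-like cells was lower at E15.5, 22.2% (19.9 to 24.6%) against 32.8% (30.1 to 35.5%), while their G2/M shares of 25.3% and 26.8% had overlapping intervals. In this class cluster 22 went from 49.7% to 28.2% of cells and cluster 20 from 27.5% to 45.4%. Within clusters 16 and 17 the S share was 19.9% and 19.1% at E15.5, against 25.4% and 31.25% at E13.5. Within clusters 20 and 22 it was 23.7% and 22.0%, against 31.5% and 35.4%. The G2/M share within clusters 16, 17 and 22 was higher in value at E15.5 than at E13.5 (79.5% against 73.0%, 19.7% against 13.2% and 37.3% against 32.8%). Within cluster 20 it was lower in value (3.41% against 4.36%). No other class had S or G2/M intervals apart between these stages. The S share was still lower in value at E15.5 in every class but endothelium-like cells (22.9% and 23.9%). In muscle progenitor-like cells it went from 47.6% to 32.4%, and in macrophage-like or monocyte-like cells from 28.2% to 13.5%, in far fewer cells than the chondrocyte-like class holds. Between E11.5 and E13.5 only endothelium-like and macrophage-like or monocyte-like cells could be compared. The S share went from 50.1% (45.1 to 55.2%) to 22.9% (15.4 to 32.0%) in the former and from 72.7% to 28.2% (15.0 to 44.9%) in the latter, and the G2/M intervals overlapped in both. Endothelium-like cells came from cluster 2 at E11.5 and cluster 3 at E13.5.

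The levels of the members, as UMIs summed over a class and scaled to 1000000 UMIs (CPM), were compared between successive libraries in the same 18 pairs. A member counted as higher or lower when its ratio reached 2-fold, the interval did not hold 1, and the pair held 20 UMIs or more. Of 648 values 3 were higher and 125 lower. The E13.5 library and the E15.5 library each serve in the step before and the step after. A value peculiar to either library thus enters both of its steps.

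From E15.5 to E18.5 all 19 G2/M members had ratios below 1 in 7 of the 8 classes, and 18 of 19 in muscle progenitor-like cells, where Hmmr stood at 1.02. The median log2 ratio of the G2/M list lay between -0.67 in epidermis-like and -1.92 in endothelium-like cells, against medians of -0.02 to -0.26 over all genes. By the size rule 15 of the 19 were lower in macrophage-like or monocyte-like cells, where 11.6% of all genes tested were lower, and 13 in endothelium-like cells (8.55%). In 3 classes 9 each were lower: muscle progenitor-like (7.72%), differentiating muscle-like (9.37%) and fibroblast-like cells (8.2%), 6 in cluster 7 (7.2%), 4 in chondrocyte-like (3.21%) and 2 in epidermis-like cells (9.1%). No member of either list was higher in any of the 8. With cells thinned to 2000 UMIs 1 S phase member was higher in macrophage-like or monocyte-like cells (7.82% of all genes were) and 1 in muscle progenitor-like cells (4.56%). Thinning also took the members lower from 24 to 7 in endothelium-like cells, where 8.4% of all genes were then lower. The count went from 15 to 6 in macrophage-like or monocyte-like (9.48%), from 13 to 3 in differentiating muscle-like (6.16%) and from 4 to 11 in chondrocyte-like cells (3.52%). Of all genes tested without thinning 7.14% were higher in chondrocyte-like cells, 5.08% in cluster 7, 7.48% in fibroblast-like, 3.09% in differentiating muscle-like, 8.79% in endothelium-like, 9.08% in epidermis-like, 4.9% in macrophage-like or monocyte-like and 5.7% in muscle progenitor-like cells. S phase members had 11 lower in endothelium-like cells, 4 in differentiating muscle-like cells, 1 each in fibroblast-like and epidermis-like cells and none in the other 4.

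**Figure D2:**
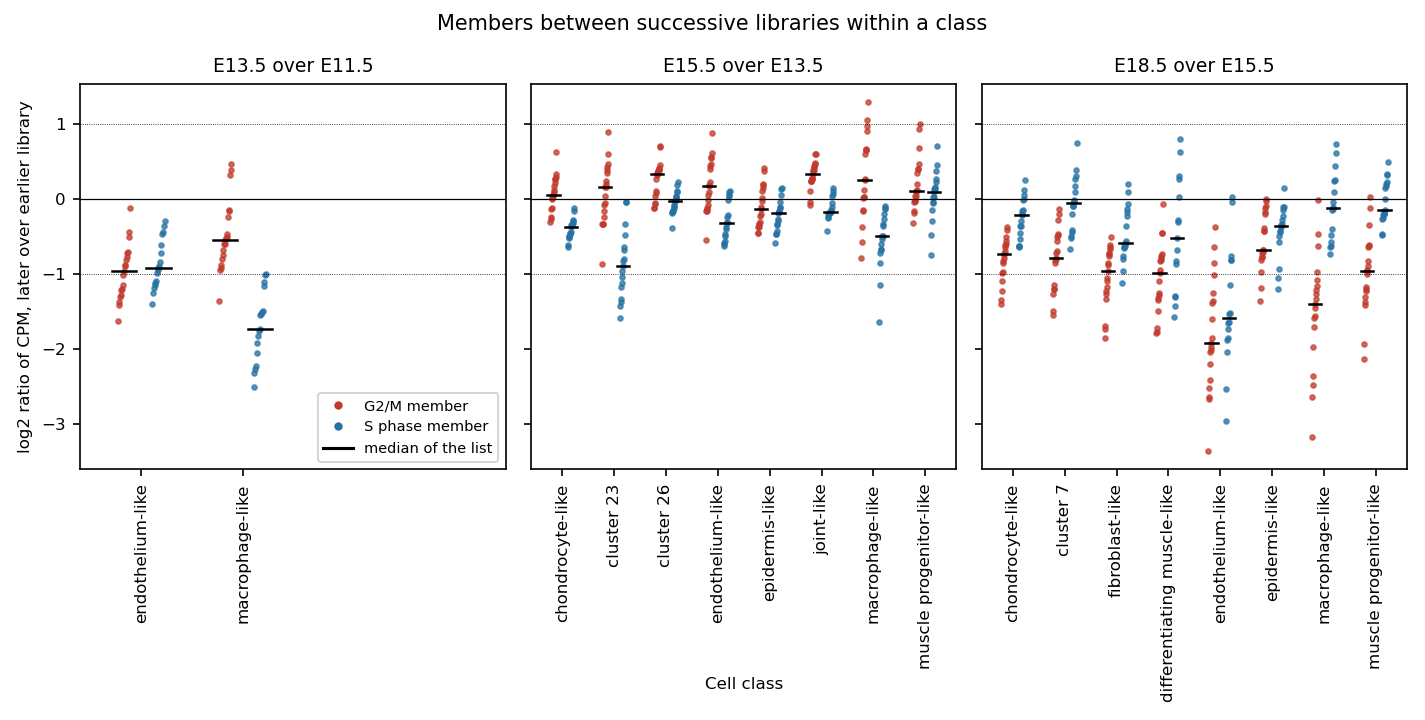
Each point is 1 member with at least 20 UMIs in the pair, as the log2 ratio of CPM of the later over the earlier library on the vertical axis, by class on the horizontal axis. G2/M members are red, S phase members blue, black bars are list medians, and dotted lines mark 2-fold. In the last panel the G2/M medians lie between -0.67 and -1.92, below the S phase medians in each class.

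In muscle progenitor-like cells the lists parted. The mitotic cyclin gene Ccnb1 stood at 199.7 CPM (262 UMIs) at E15.5 and 45.4 CPM (111 UMIs) at E18.5, 4.40-fold lower (3.51 to 5.55). Ube2c, which works with the anaphase-promoting complex, went from 454 to 119 CPM, 3.81-fold lower (3.31 to 4.40). Cdk1 went from 179 to 67.0 CPM and Plk1 from 54.9 to 21.3 CPM. The S list had a median log2 ratio of -0.15, against -0.96 for the G2/M list and -0.18 over all genes. Of the 17 S phase ratios 9 were below 1. Among the others Pcna (181 to 228 CPM), Mcm3 (89.2 to 125 CPM) and Mcm6 (155 to 178 CPM) stood higher, at ratios of 1.26, 1.41 and 1.15 that miss the size rule. Within the G2/M list Mki67 (0.78), Ccnb2 (0.92) and Hmmr (1.02) had ratios nearest to 1. At E13.5, Ccnb1 had been at 173 CPM and Ube2c at 417 CPM, near the E15.5 levels.

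Macrophage-like or monocyte-like cells differed in 1 list at a time in the outer steps. From E11.5 to E13.5, 16 of the 17 S phase members were lower and 1 of the 19 G2/M members, Kif11, where 22.1% of all genes were lower and 10% higher. Relative to the median gene 10 S phase and no G2/M members were lower (5.81% of all genes were), and thinned to 2000 UMIs 8 and 1 (18.3%). Mcm3 went from 349 to 74.2 CPM, 4.70-fold lower (3.52 to 6.36), and Ung, which removes uracil from DNA, from 107 to 18.9 CPM. From E13.5 to E15.5 the S phase members Mcm6 and Rrm2 were lower (3.16% of genes were), and the mitotic genes Cenpf and Nusap1 were higher (4.48% of genes were). Cenpf went from 35.2 to 86.5 CPM, a ratio of 2.46 (1.55 to 3.98). From E15.5 to E18.5 the S list kept a median log2 ratio of -0.12 and the G2/M list had -1.40, with Plk1 going from 48.0 to 5.33 CPM and Cenpf from 86.5 to 13.9 CPM. These classes hold 33, 39, 52 and 103 cells, so few cells carry each value.

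In the step from E11.5 to E13.5 the whole transcriptome shifted with transcript length. In endothelium-like cells the median log2 ratio was 1.39 over the genes with short transcripts (under 1 kilobase at their longest) and -0.56 over those of 1.5 kilobases or more, where all 36 members belong. The medians of -0.97 for the G2/M list and -0.93 for the S list, with 9 and 6 members lower where 15.3% of genes were lower and 6.82% higher, stand beside that value. Relative to the median gene 1 of these 15 calls was left, a G2/M member, where 2.41% of all genes were lower. With cells thinned to 2000 UMIs, 22 members were lower, 11 of each list, where 16.6% of the genes then tested were lower. The S list median of -1.74 in macrophage-like or monocyte-like cells stands beside -0.63 for genes of that length. The part of length in these values was not tested.

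From E13.5 to E15.5 S phase members were lower by the size rule only in cluster 23 (7 of 17, where 1.6% of genes were lower and 2.04% higher) and in macrophage-like or monocyte-like cells (2). Chondrocyte-like cells had all 17 S phase ratios below 1, from 0.64 for Mcm3 to 0.92 for Rrm2, with none past 2-fold, where 0.74% of genes were lower and 1.77% higher. Mcm3 stood there at 95.4 CPM (1711 UMIs) and 61.5 CPM (933 UMIs), and the G2/M median was 0.05. The only other member higher in any pair was Hmmr in muscle progenitor-like cells between these stages (28.6 and 57.2 CPM), where 2.06% of genes were higher and 2.43% lower. No member was called in cluster 26 (1.11% of genes higher, 1.1% lower), joint-like (1.19% and 1.03%), epidermis-like (1.29% and 2.8%) or endothelium-like cells (2.04% and 2.41%).

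Differentiating muscle-like cells, which express Myog and sarcomere genes, were set beside muscle progenitor-like cells of the same library. This and the cartilage contrasts below were chosen after values had been seen. At E15.5, 14 of 19 G2/M and 15 of 17 S phase members were lower in the differentiating cells, where 15.1% of genes were lower and 6.53% higher, and at E18.5 13 and 15, where 18.5% were lower and 5.4% higher. The S list was lower by a median of 3.28-fold and 5.04-fold, and the G2/M list by 2.24-fold and 2.41-fold. Ube2c stood at 342 CPM in differentiating and 454 CPM in progenitor cells at E15.5, 1.33-fold lower (1.16 to 1.52), and Cenpa, the histone of centromeres, at 186 and 267 CPM. The 4 G2/M members that missed the rule in both libraries were Ccna2, Cenpa, Ube2c and Aurka. At E15.5, 31.1% of differentiating cells were G2/M-called and 4.92% S-called. All 19 of the G2/M-called cells held Myog UMIs, and Pax7 and Myf5 had 1 UMI each over them. Doublets of a progenitor and a differentiating cell cannot be told apart from single cells here.

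Only Mcm2 and Slbp among the 17 S phase members missed the rule in both libraries. Mcm2 encodes a subunit of the 6-part helicase ring, and its partners did not follow it. In differentiating muscle-like cells called neither, with the call made without the gene in question, Mcm2 stood at 77.5 CPM (57.1 to 103) at E15.5 and 67.7 CPM (50.9 to 88.3) at E18.5. Mcm3 stood at 12.9 and 5.02 CPM, Mcm4 at 6.46 and 12.4, Mcm5 at 25.3 and 9.99, Mcm6 at 27.4 and 16.2, and Mcm7 at 33.9 and 25.9 CPM. Every one of these partner levels lay below the lower bound for Mcm2 in its library. In progenitor-like cells called neither at E18.5 Mcm2 stood at 81.8 CPM, below Mcm3 (99.6) and Mcm6 (158) and above Mcm4 (41.3), Mcm5 (56.9) and Mcm7 (79.4). At E15.5, in 10 or 11 such cells, Mcm2 and Mcm7 stood at 105 CPM each, Mcm6 at 114, Mcm3 at 69.98, Mcm5 at 55.0 and Mcm4 at 34.99 CPM, from 4 to 13 UMIs each. The UMIs were spread: 46 of 104 differentiating cells at E18.5 held Mcm2, at most 9 in 1 cell. A transcript gives 1 tag at its 3' end whatever its length, though capture can differ between genes. The same gene between classes gave the same order: at E18.5 Mcm2 was 1.28-fold lower (0.99 to 1.67) in all differentiating than in all progenitor-like cells, and Mcm5 8.62-fold lower (4.74 to 17.5). Mcm2 (chromosome 6, 88883474 to 88898780, minus strand) overlaps no other annotated gene, while Mcm7 overlaps Cops6 and Ap4m1 on the opposite strand.

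**Figure D3:**
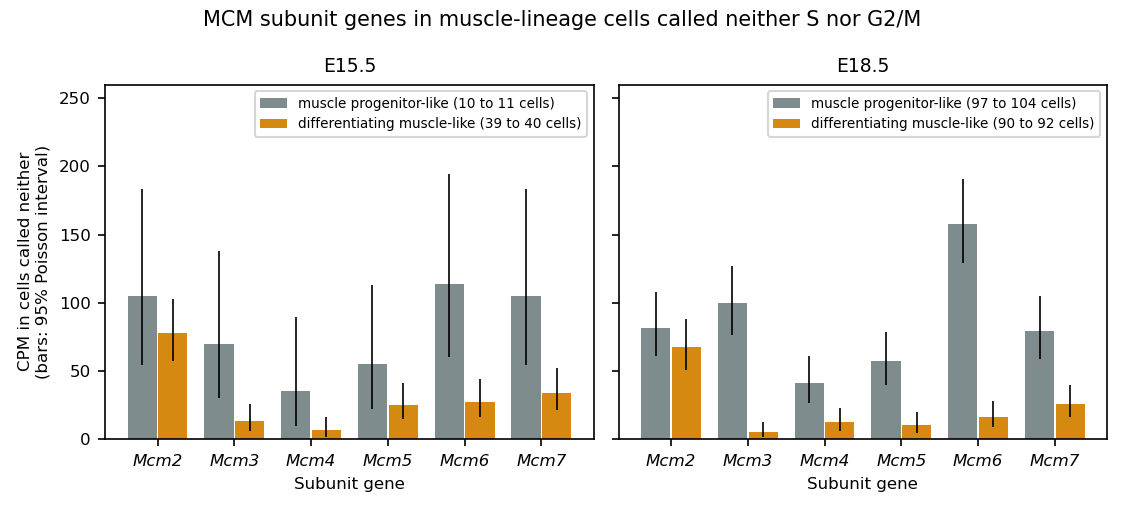
CPM of the 6 MCM subunit genes (vertical axis, from 0) in cells called neither S nor G2/M, for progenitor-like (grey) and differentiating (orange) muscle cells at E15.5 and E18.5, with 95% Poisson intervals. Mcm2 stays at 77.5 and 67.7 CPM in differentiating cells, and the other 5 stand at 33.9 CPM or less.

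In cartilage both lists were ordered along maturation at E15.5. The 19 G2/M members summed to 2216 CPM in chondrocyte-like cells, 809 CPM in cluster 23 and 137 CPM in hypertrophic chondrocyte-like cells, and the 17 S phase members to 1244, 495 and 324 CPM. Against chondrocyte-like cells 18 G2/M and 13 S phase members were lower in cluster 23, where 7.96% of genes were lower and 4.92% higher, and 19 and 15 in hypertrophic chondrocyte-like cells, where 14.9% were lower and 13.6% higher. Top2a, which untangles DNA, stood at 202, 62.1 and 14.2 CPM in that order, and Rrm2 at 161, 30.2 and 5.07 CPM. Slbp and Fen1 missed the rule in both. Slbp binds histone mRNA, and stood at 150 CPM (2273 UMIs) in chondrocyte-like cells, at 155 UMIs in cluster 23 (1.66-fold lower, 1.41 to 1.97) and 92.3 CPM (91 UMIs) in hypertrophic chondrocyte-like cells. At E13.5 cluster 23 had 18 G2/M members lower but only 4 S phase members, Mcm5, Tyms, Rrm1 and Rrm2, where 9.36% of genes were lower and 4.53% higher. Cluster 23 thus held more S phase transcripts at E13.5 than at E15.5, 843 CPM summed against 495. Neutrophil-like cells set beside macrophage-like or monocyte-like cells at E18.5 had 9 of the 13 G2/M and 11 of the 15 S phase members with enough UMIs lower, where 38.9% of genes were lower and 9.8% higher.

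Over the 35 pairs of a class and a library, the 2 list means correlated at 0.88, so classes high in one list were mostly high in the other. Of the 35 pairs, limb bud mesenchyme-like cells at E11.5 held the highest level of 10 of the 19 G2/M members, and macrophage-like or monocyte-like cells at E11.5 that of 11 of the 17 S phase members. Rrm2 reached 683 CPM in limb bud mesenchyme-like cells, Ube2c 454 CPM in muscle progenitor-like cells at E15.5, and Birc5, which protects dividing cells, 511 CPM in fibroblast-like cells at E15.5. Cdk1 stood at 409 CPM in endothelium-like cells at E11.5 and at 151 to 213 CPM in the other 4 classes there. In whole libraries Ccnb1 stood at 288, 99.0, 114 and 51.1 CPM in stage order, Mki67 at 82.9, 52.6, 60.1 and 53.0, and Pcna at 214, 129, 106 and 151. Pcna was higher at E18.5 than at E15.5, while Plk1, a kinase of mitotic entry, went from 41.2 to 17.8 CPM.

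**Figure D4:**
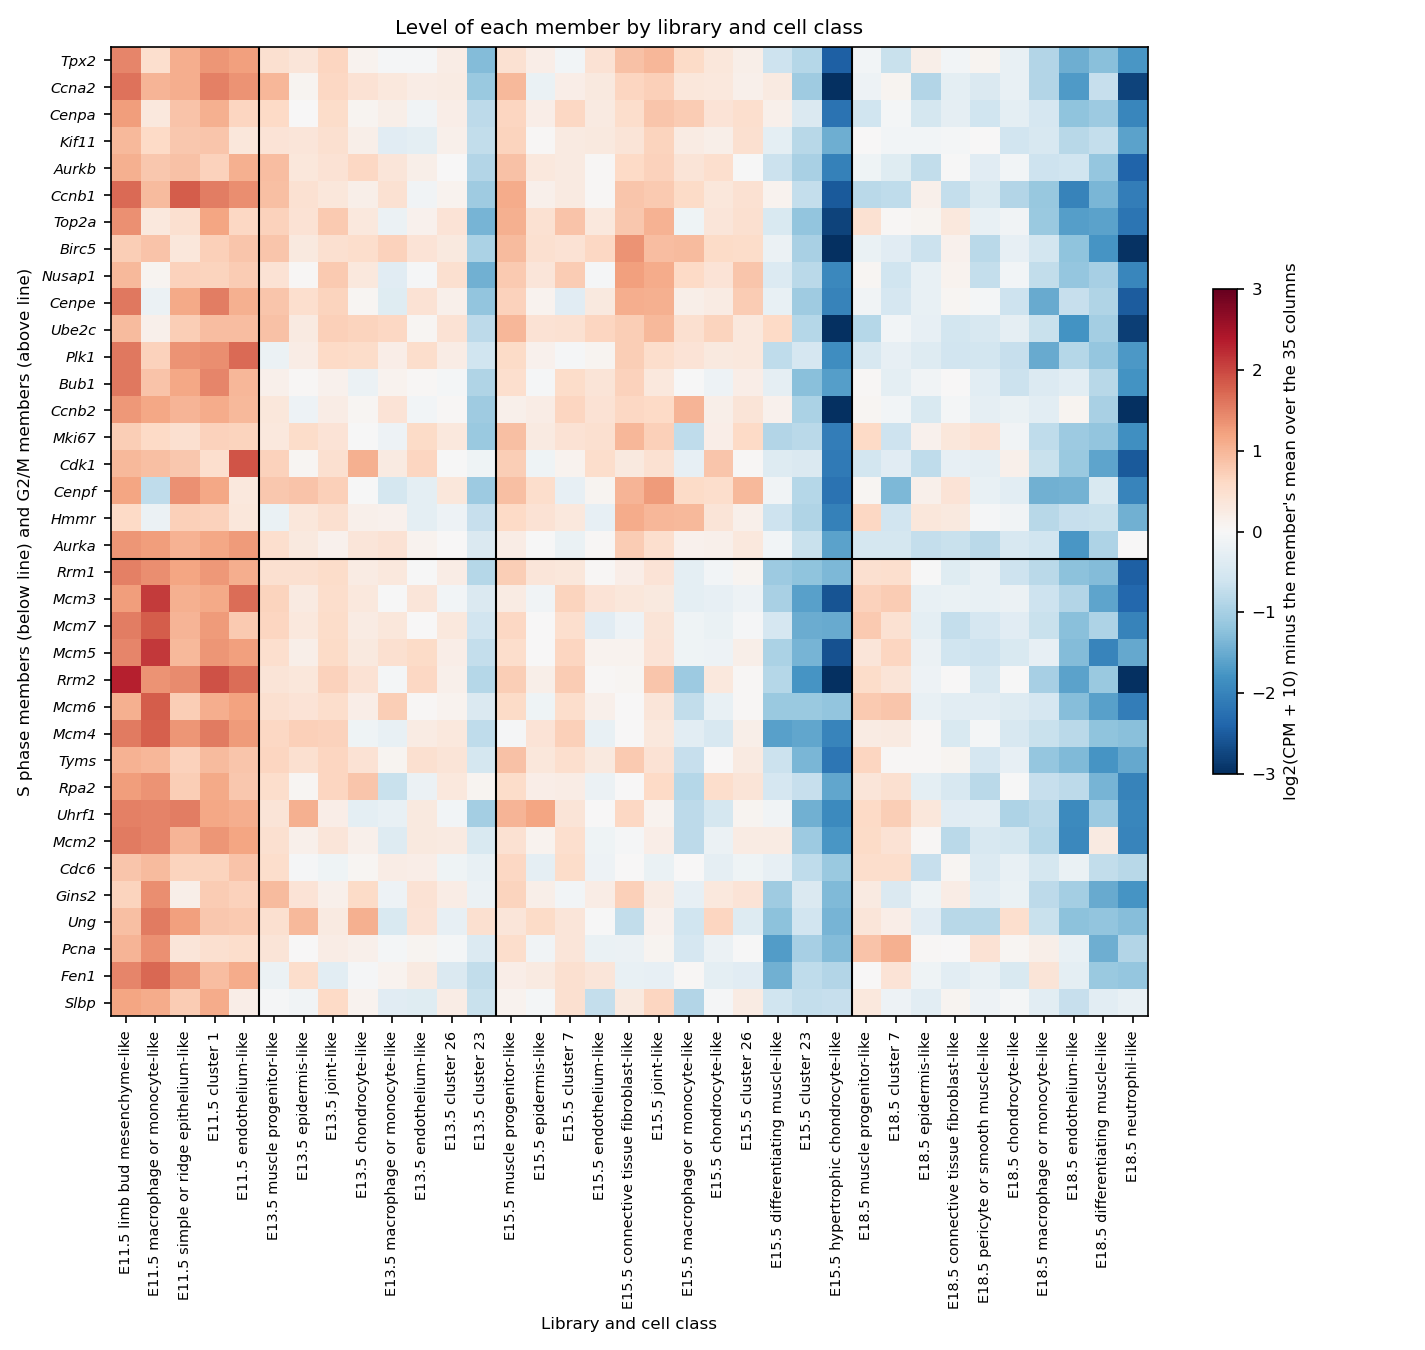
Level of each member (rows, ordered within each list from most to least like the rest) in each class and library (columns, ordered by called share within a library), as log2(CPM + 10) minus the member's mean. Columns of E11.5 are mostly red, the hypertrophic chondrocyte-like and neutrophil-like columns mostly blue, and Slbp in the bottom row varies least in step with the others.

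Members were then compared with the rest of their own list over the 35 pairs, as Pearson correlations of log2(CPM + 10), a description with no test, since classes share libraries and depth. Among G2/M members the correlation ran from 0.79 to 0.97 with Aurka (0.79), Hmmr (0.86) and Cenpf (0.86) lowest and Tpx2 highest. Aurka stood at 35.9 CPM in neutrophil-like cells, from 11 UMIs. Among S phase members it ran from 0.77 to 0.97, with Slbp (0.77), Fen1 and Pcna (0.83 each) lowest and Rrm1 highest. With library means subtracted the 3 lowest were Aurka, Cdk1 and Cenpf, and Slbp, Fen1 and Ung. Fen1, a nuclease that trims Okazaki fragments, overlaps Tmem258 on the opposite strand, and Pcna has a near copy, Pcna-ps2, with 366 UMIs, so their counts are less certain. Ccna2, Mcm7 and Gins2 also overlap a gene of 1000 UMIs or more on the opposite strand.

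A second measure set the level in cells called neither against that in called cells, with each call made without the member. G2/M members nearly vanished outside called cells: the median was 6.72% of the called level, lowest for Nusap1 (4.39%) and Hmmr (4.61%). Cenpa (19.7%), Ccnb2 (18.6%) and Cdk1 (16.2%) kept the most. S phase members kept a median of 39.8%, with Slbp (62.5%), Mcm6 (61.4%) and Mcm2 (60.5%) highest and Rrm2 (13.3%) lowest. Called cells here pool the S-called and the G2/M-called ones, so this measure cannot show how sharply either call separates cells. Cells called neither were also chosen for low counts of both lists, so part of the contrast follows from the rule itself. What the values show is that S phase members kept more of the pooled called level in uncalled cells, by the median, than G2/M members did.

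The contrast of G2/M-called with S-called cells ordered the members further. All 19 G2/M members were higher in G2/M-called cells in each of the 4 libraries, from 2.24-fold for Cdk1 and 2.32-fold for Top2a, which are also read in S phase, to 8.17-fold for Cenpf and 8.23-fold for Cenpa. For S phase, 15 of the 17 S phase members were lower there in all 4 libraries. Ung was 8.49-fold higher in S-called cells (6.06 to 13.1 over the libraries), the most of any, followed by Mcm6 (3.47-fold) and Mcm2 (3.32-fold). The exceptions were Rrm1, with a ratio of 0.99 (0.92 to 1.09), and Rrm2, with 0.87 (0.68 to 1.01), the pair that make up ribonucleotide reductase. Tyms, the next enzyme of nucleotide supply in the list, had 0.86 (0.81 to 0.95).

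**Figure D5:**
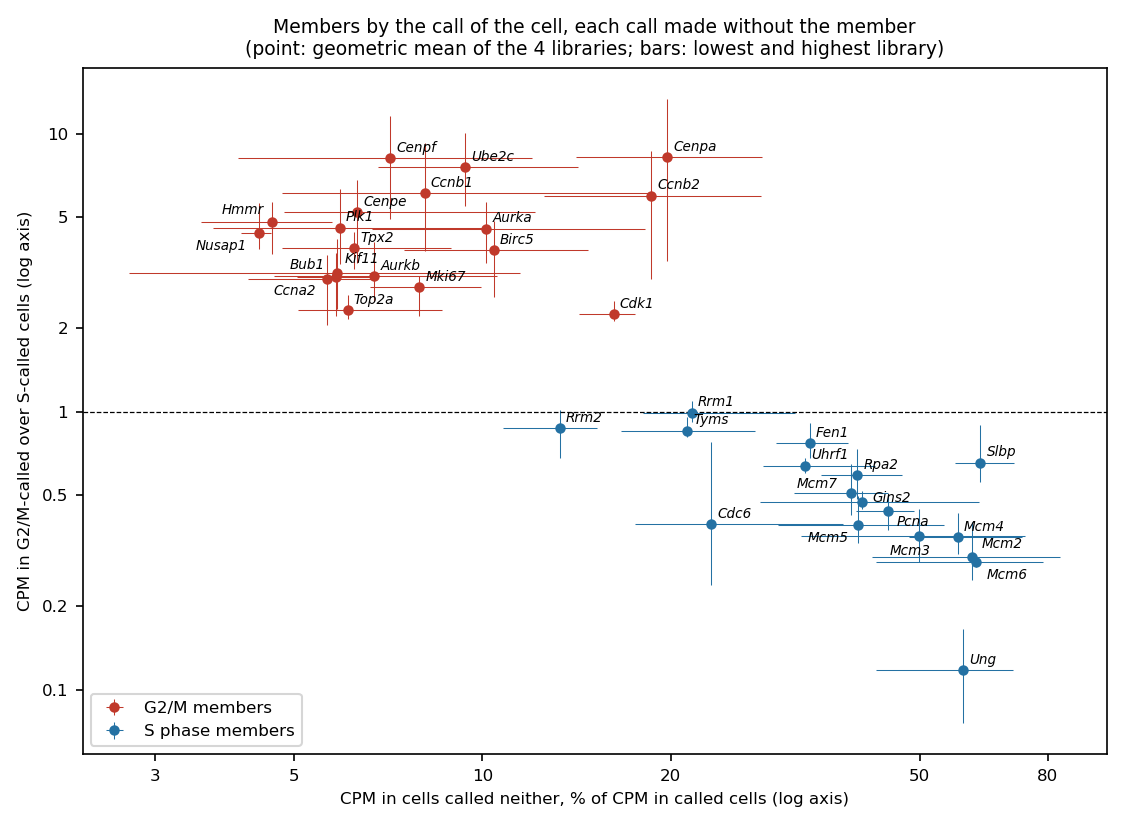
Each member by its CPM in cells called neither, in percent of that in called cells (horizontal, log axis), and its CPM in G2/M-called over S-called cells (vertical, log axis), with each call made without that member. Points are geometric means and bars the range of the 4 libraries. G2/M members (red) lie at 4.39 to 19.7%, S phase members (blue) at 13.3 to 62.5%, with Rrm1, Rrm2 and Tyms near a ratio of 1 and Ung lowest.

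Single values that stood apart from the rest of their list by 2-fold or more, once class and member means were taken out, were 1 of 576 for G2/M and 8 of 519 for S, all above. These were chosen after their values were seen. Besides Mcm2 in differentiating muscle and Slbp in hypertrophic chondrocyte-like cells, Slbp stood at 130 CPM in neutrophil-like cells (40 UMIs in 27 of 55 cells). Uhrf1, which carries DNA methylation through replication, stood at 137 CPM in epidermis-like cells at E15.5, with 160 CPM in those called neither and 130 CPM in called ones. At E13.5 it stood at 126 CPM in epidermis-like cells and 21.7 to 74.3 CPM in the other classes. Rrm2 in limb bud mesenchyme-like cells, Fen1 in macrophage-like or monocyte-like cells at E18.5 (57.5 CPM) and Ung in cluster 23 at E13.5 (45.4 CPM) made up the S phase values. The G2/M value, Ccnb2 in endothelium-like cells at E18.5, rests on 27 UMIs in 8 of 46 cells, 12 of them in 1 cell.

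Other cell cycle genes, from lists fixed apart from the members, followed the calls. Of 56 mitosis genes 51 were at least 2-fold higher in called than in uncalled cells in all 4 libraries, and of 42 replication genes 30, where 2.29% of genes outside the members were. Kif2c (22.5-fold), Ndc80 (19.6-fold) and Cdca2 (19.5-fold), parts of spindle attachment and mitotic chromatin, led the first, and Clspn (11.1-fold), Tk1 (9.51-fold) and Asf1b (8.17-fold) the second. Pttg1, the securin gene, had a ratio of 0.94, Hjurp 2.3 and Cks1b 2.61 at the other end, and among replication genes Gins4 had 1.76 and E2f1 1.93. Of 18 brakes and D cyclins 2 were 2-fold higher, Cdkn2c (6.54-fold) and Rbl1 (2.96-fold), both inhibitors of cell cycle entry, and none was 2-fold lower in all 4 libraries, where 0.363% of genes were. Cdkn2b (0.34), Trp53inp1 (0.55) and Cdkn1a (0.62), inhibitor and p53 target genes, had the lowest ratios.

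Over the 35 pairs the genes that ran closest to the G2/M mean, of 13513 ranked, were Kif22 and Tacc3 (0.96 each), Knstrn (0.96), Spc24 (0.95) and Cdc20 (0.94). Closest to the S phase mean were Mms22l (0.96), Rfc5 and Rpa1 (0.95 each) and Prim1 (0.94).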

How the data were processed

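Counts of UMIs per gene and barcode were deposited by the authors for 4 libraries, made with Cell Ranger against mm10, per the submitters' processing notes, which also name Seurat 2.3.4. The labels used here do not state the Cell Ranger version or how barcodes were called. The library totals were 27149328, 35485783, 30240499 and 15080964 UMIs in stage order. Barcodes with at least 200 genes and at most 10% mitochondrial UMIs were kept (scanpy 1.11.5). Scrublet called 0.422% of them, was not taken as working, and removed none. Clustering used 2000 variable genes without the members and the other cell cycle genes of the lists used here, 30 components, 15 neighbours and Leiden resolution 1, with no integration. The 29 clusters were named from 19 marker lists, on at least 3 markers in at least 20% of cells and 2-fold above the rest. Cluster 7 was left unnamed after its leading genes were seen.

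Cells were thinned without replacement to 2000 UMIs, and S was called at a tie. Shares have exact Clopper-Pearson, levels exact Poisson and ratios exact conditional binomial 95% intervals, which treat UMIs as independent and cover counting error only. The size rule and the calls were checked on simulated data. All members may be named. Departing members are the 3 of each list with the lowest correlation and the 3 with the highest level in uncalled cells, other genes the 5 most like each list mean and the 3 at each end of each further list; some genes these rules name are not reported here. The members and lists were chosen with earlier results of these data known. Positions, lengths and overlaps are from GENCODE vM21 (GRCm38), in which 32655 of 33456 gene IDs were found.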

Additional observations from a re-analysis of the deposited data

Results flagged for a closer look

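Barcodes left out for their mitochondrial share, which no comparison uses, also held S phase and G2/M transcripts, at levels above the limit that a count of 0 allows. Summed over the 36 members these came to 6082 CPM at E11.5 (43 barcodes), 3757 CPM at E13.5 (68), 2784 CPM at E15.5 (110) and 2441 CPM at E18.5 (93). The kept cells had 6789, 3499, 3375 and 2343 CPM.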

How the results depend on the processing

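Shares are given in stage order where they moved by more than the counting interval. With a limit of 2 UMIs they were called 97.0, 71.7, 63.8 and 53.9, G2/M (from E13.5 on) 27.2, 29.8 and 18.8, S 57.0, 44.5, 34.0 and 35.1 percent. With a limit of 5 UMIs they were called 83.8, 40.5, 38.4 and 26.8, G2/M (from E13.5 on) 21.8, 24.6 and 14.3, S 45.1, 18.6, 13.7 and 12.6 percent. Thinned to 1000 UMIs they were called 78.0, 37.2, 35.1 and 24.2, G2/M 35.04, 19.9, 22.3 and 12.9, S 43.0, 17.3, 12.8 and 11.3 percent. Thinned to 4000 UMIs, which leaves out 181, 90, 123 and 314 cells, they were called 98.8, 77.7, 70.7 and 61.9, G2/M 41.9, 27.4, 30.6 and 19.9, S 56.9, 50.3, 40.0 and 42.1 percent. Without thinning they were called 99.3, 92.2, 87.9 and 71.8, G2/M (from E13.5 on) 27.3, 31.4 and 19.2, S 61.1, 64.9, 56.4 and 52.6 percent. A score against control genes gave called 86.9, 44.2, 41.5 and 32.4, G2/M 37.4, 21.6, 24.3 and 14.1, S 49.5, 22.7, 17.2 and 18.3 percent. The next settings were added after the data were seen. Leaving out abundant genes before thinning gave called (from E13.5 on) 60.3, 55.7 and 47.4, G2/M (E18.5) 18.9, S (from E13.5 on) 35.3, 27.3 and 28.5 percent, and an S phase list without Slbp, Pcna and Ung gave called 90.6, 50.8, 45.7 and 34.98, S (from E13.5 on) 26.3, 18.7 and 17.4 percent. In each of these the called share kept its order over the stages, but S exceeded G2/M at E15.5 with the limit of 2, at 4000 UMIs and without thinning, and G2/M exceeded S at E13.5 and E18.5 with the limit of 5 and at 1000 UMIs, and at E18.5 with the shortened S phase list. Pairs with at least 50% of cells called numbered 20, and 9 with the limit of 5, 6 at 1000 UMIs, 34 without thinning and 12 by the score. Relative to the median gene, 5 members rather than 3 were higher and 92 rather than 125 lower. From E11.5 to E13.5 this left 1 rather than 15 lower in endothelium-like cells, where 2.41% of all genes were lower. In macrophage-like or monocyte-like cells it left 10 rather than 17, where 5.81% of all genes were lower. Thinned to 2000 UMIs, where fewer genes reached 20 UMIs, 93 were lower, 22 of them in endothelium-like cells from E11.5 to E13.5. By rank correlation the least typical members were Hmmr, Mki67 and Cdk1, and Fen1, Slbp and Ung. The S share of muscle progenitor-like cells, higher at E18.5 than at E15.5, was lower in value at 1000 UMIs (27.0 and 26.1 percent). No paired analysis was possible because each stage has 1 library and all carry the same replicate number. Levels from few UMIs, as in neutrophil-like cells, cannot show modest differences.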
